A study of Homo sapiens with 4 samples.

Results

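Stem cell associated genes with PROM1 were followed in SNU-16, a cell line of human gastric carcinoma, after growth in mice. The set lists 10 genes chosen by name, with earlier results of these data known. Of these, 9 have a row of their own in the deposited table, out of 18417 genes with such a row. The tenth, BMI1, a subunit of polycomb repressive complex 1, shares its only row with the read-through gene COMMD3-BMI1 in the platform annotation, so no value is given for it. Each of the 9 genes is read by 1 probe set.

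The data are 4 expression arrays, 1 for each combination of 2 sites and 2 implantation rounds. The ovary lines are cells recovered from metastases in the ovaries of BalB/c nude mice, which are immunodeficient, after SNU-16 cells were implanted into the stomach, and the stomach lines are cells recovered from the tumour at the implantation site. Round 2 lines came from implanting the recovered cells again, ovary-derived cells (SNU-16O) giving the round 2 ovary line and stomach-derived cells (SNU-16S) the round 2 stomach line, and round 1 lines came from the first implantation. All 4 lines descend from the parental cell line, which is not among the arrays analysed here, and each round 2 line descends from the round 1 line of its site. RNA was taken from cell pellets, and sex and age of the mice are not stated in the sources used here.

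Each site has 2 arrays from successive passages of a lineage, and each round has 2 arrays from different lineages. The p-values measure the spread between these arrays, which may be partly technical. For the comparison of sites this is the spread between passages, and for that of rounds the spread between lineages. An exact two-sided permutation test of 2 arrays against 2 cannot give a p below 0.333. On the log2 scale, array medians ran from 6.80 to 6.84. With so few arrays the precision of all values below is limited. All 11 markers of gastric carcinoma epithelium, among them EPCAM, KRT8 and the FGFR2, MYC and CD44 genes, lay above the signal minimum on all arrays. That minimum was 5.64, the 30th percentile of the mean over all rows. At or below it on all arrays were 5 of 10 markers of fibroblasts and 4 of 9 of leukocytes. So were 4 of 8 markers of endothelium and 4 of 10 of ovarian cells. PTPRC, PECAM1, DCN and CYP19A1 were among them. Above it on all arrays were 5, 5, 3 and 5 markers in the same order, COL1A1, CD68, CLDN5 and FOXL2 included. The probe sets were assigned to human genes and the hosts were mice, so these markers cannot show whether mouse cells were present. The mean level of the ovarian list was 6.06 and 6.16 in ovary lines of rounds 2 and 1, against 6.04 and 6.15 in stomach lines.

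The titles and tissue labels were followed for the groups, but 2 descriptions go against them. For the round 2 stomach sample, the description gives ovary as its site of culture. For the round 2 ovary sample, the closing words put the tumour in the stomach. An exchange of these arrays would turn the sign of each round 2 difference between sites. The mean difference between rounds would stay as it is, but the differences between rounds within a site would change.

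The genes in the set mark stem or progenitor cells in different tissues and do so by unrelated mechanisms. In the gut, WNT signals at the base of crypts and glands keep stem cells dividing, and SOX9, ASCL2 and OLFM4 are read as parts of that state. PROM1, ALCAM and aldehyde dehydrogenase activity are used to sort tumour cells that start new tumours on transplantation, while ZFP42 (also called REX1) is a marker of pluripotent embryonic cells. None of these genes marks stem cells alone, since most are also expressed in differentiated epithelia. In RNA from whole pellets, fewer cells expressing a gene and less RNA per cell cannot be told apart.

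PROM1, ZFP42 and ALDH1A1 were the members whose values ranged over more than 1 log2 unit across the arrays, and the bases before their transcription starts are shown for that reason. The sequences are the 250 bases upstream of a RefSeq transcript start in GRCh38.p14, on the strand of the gene. Entries were found for 6 of the 9 genes. PROM1 has 4 start sites there, and the most upstream is shown, at chr4:16084024-16084273 on the minus strand. The ALDH1A1 stretch is chr9:72953054-72953303 on the minus strand and the ZFP42 stretch chr4:187995521-187995770 on the plus strand. Capitals mark the CCAAT box (letters CCAAT), the GC box (letters GGGCGG) and the TATA box (letters TATAAA), each searched on both strands.
PROM1: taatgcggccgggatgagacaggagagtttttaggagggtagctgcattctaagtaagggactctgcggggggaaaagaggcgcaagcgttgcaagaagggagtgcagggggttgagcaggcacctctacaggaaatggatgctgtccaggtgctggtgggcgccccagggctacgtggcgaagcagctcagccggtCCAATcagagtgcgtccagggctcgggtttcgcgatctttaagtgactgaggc
ALDH1A1: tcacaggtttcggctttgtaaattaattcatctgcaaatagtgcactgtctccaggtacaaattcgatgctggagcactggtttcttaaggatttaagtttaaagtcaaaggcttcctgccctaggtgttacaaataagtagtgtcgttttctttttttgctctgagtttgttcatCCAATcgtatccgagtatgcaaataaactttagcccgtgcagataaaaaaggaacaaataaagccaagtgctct
ZFP42: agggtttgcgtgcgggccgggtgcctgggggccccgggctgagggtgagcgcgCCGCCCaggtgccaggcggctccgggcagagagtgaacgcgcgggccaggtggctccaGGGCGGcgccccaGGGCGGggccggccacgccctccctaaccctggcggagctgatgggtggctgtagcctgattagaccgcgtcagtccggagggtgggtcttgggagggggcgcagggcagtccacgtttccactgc
The PROM1 stretch holds 13 CG dinucleotides and 1 CCAAT box. The ALDH1A1 stretch holds 6 and 1. The ZFP42 stretch holds 23 with 3 GC boxes and no CCAAT box, where the median over 35116 upstream stretches is 11 CG dinucleotides. The CCAAT box occurs in 32% of those stretches, the GC box in 42.6% and the TATA box, absent from the 3 shown, in 10.7%. These matches describe the letters only. The 3 motifs share no bases with each other in these stretches, and the array does not tell which PROM1 start was used.

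PROM1 encodes prominin-1 (CD133), a membrane glycoprotein of cell protrusions. It was higher in the ovary lines than in the stomach lines in both rounds. Its log2 level was 6.17 in round 2 and 6.24 in round 1 of the ovary lines, against 5.30 in round 2 and 4.86 in round 1 of the stomach lines. Both ovary arrays lay above the signal minimum and both stomach arrays below it, with no overlap between the sites. The mean was 6.21 ± 0.045 in ovary and 5.08 ± 0.31 in stomach (SD, n = 2 arrays each). Within round 2 the sites differed by 0.88 and within round 1 by 1.38. The fitted mean difference was 1.13 ± 0.17 (SE), and it did not pass the test across all genes (limma adjusted p = 1, unadjusted p = 0.00146). With the round as a replicate block the adjusted p was 0.654. Because the stomach values lie under the signal minimum, the size of this difference is uncertain. Set against the minimum itself, the ovary mean was 1.48-fold higher. The minimum is a percentile of the rows, and no detection call was used. Between rounds it differed by -0.064 in ovary lines and 0.43 in stomach lines. If the round 2 arrays were exchanged, its mean site difference would be 0.25.

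PROM1 entered the test narrowly. Its mean over the 4 arrays exceeded the signal minimum, both 5.64 after rounding, only in the fifth decimal, and it did so through the ovary arrays. ZFP42, with a mean of 5.67, passed through its round 2 arrays in the same way. With a minimum at the 50th percentile of all rows, 6.82, PROM1, ZFP42, ASCL2 and MSI1 would not be tested. PROM2, the paralog of PROM1, had a level of 8.56 in round 2 and 7.75 in round 1 of the ovary lines, against 8.51 and 8.38 in the stomach lines, a site difference of -0.29 ± 0.28 and a round difference of 0.47 ± 0.22 (limma adjusted p = 1 and 0.388).

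**Figure D1:**
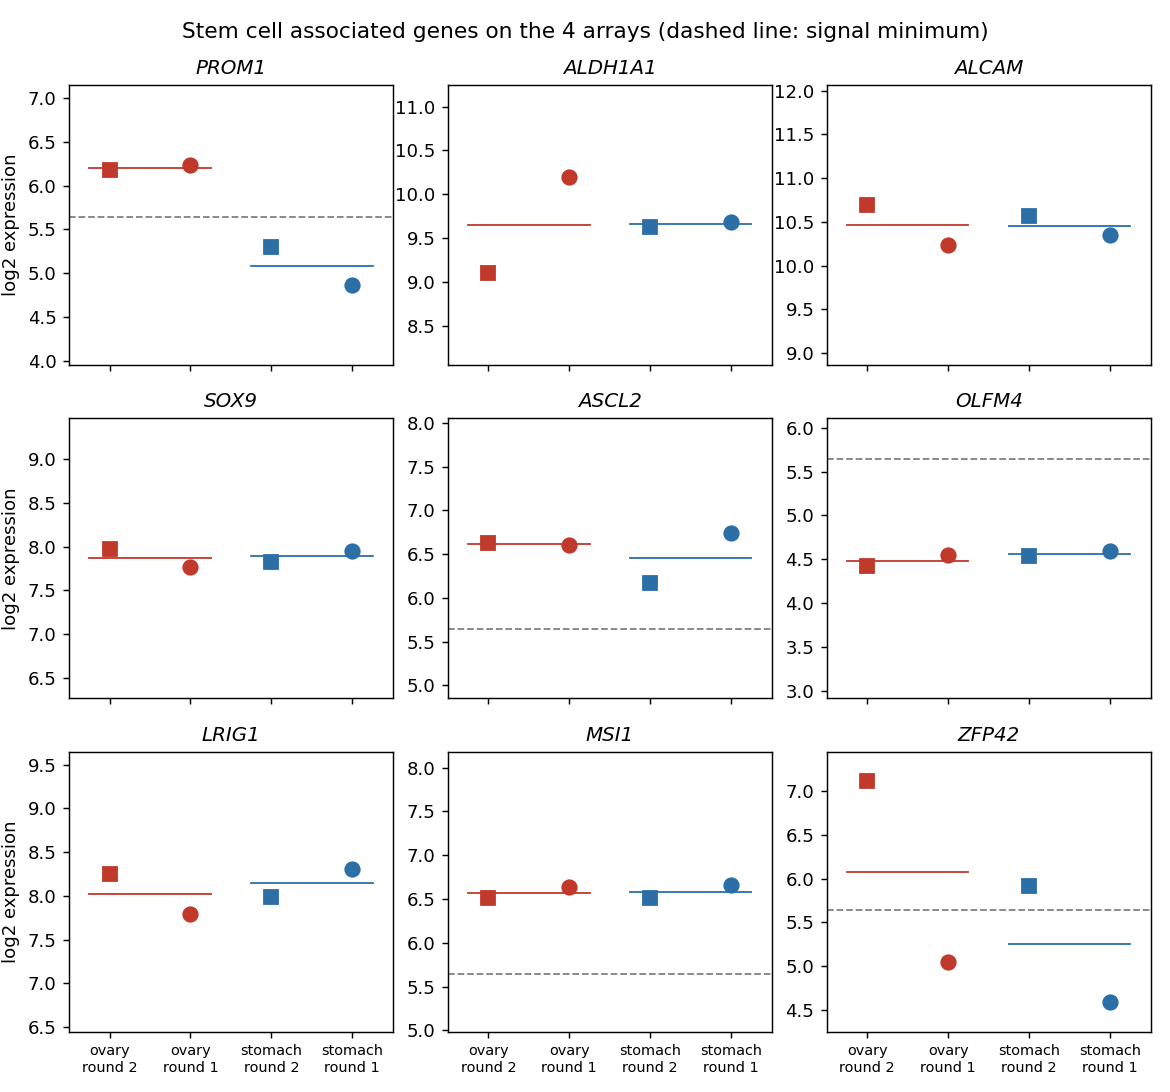
Log2 expression of the 9 genes with a row of their own, a panel each, on the arrays of the ovary lines (red) and stomach lines (blue). Squares are round 2, circles round 1, short lines the mean of a site, and the dashed line the signal minimum of 5.64. Every panel spans the same number of log2 units. PROM1 is the gene whose ovary points both lie above its stomach points, while ZFP42 is highest in the round 2 ovary line (7.11).

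ALCAM encodes CD166, an adhesion molecule of the immunoglobulin superfamily. Its level was 10.69 in round 2 and 10.24 in round 1 of the ovary lines, against 10.56 and 10.35 in the stomach lines. Both round 2 arrays lay above both round 1 arrays, and the sites overlapped. The round 2 minus round 1 difference was 0.34 ± 0.088 (limma adjusted p = 0.287, unadjusted p = 0.0141), made of 0.46 in ovary and 0.22 in stomach lines. The site difference was 0.0081 ± 0.19 (limma adjusted p = 1), with -7.6e-05 after quantile normalization, so it has no stable direction.

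ALDH1A1 encodes a cytosolic aldehyde dehydrogenase that oxidises retinaldehyde to retinoic acid and contributes to the enzyme activity by which such cells are sorted. Its level was 9.10 in round 2 and 10.20 in round 1 of the ovary lines, against 9.63 and 9.68 in the stomach lines. The ovary arrays therefore held both its highest and its lowest value, and the 2 stomach arrays lay between them. Between rounds it differed by -1.10 in ovary lines, 2.14-fold, and by -0.055 in stomach lines, and the mean difference was -0.58 ± 0.25 (limma adjusted p = 0.368). The site difference was -0.53 in round 2 and 0.52 in round 1, which gave a mean of -0.0063 ± 0.37. The contrast between these site differences was -1.04 ± 0.57 (limma adjusted p = 1). The larger step in the ovary lines depends on the labels of the round 2 arrays. If these were exchanged, ALDH1A1 would go from 10.20 to 9.63 in ovary lines and from 9.68 to 9.10 in stomach lines.

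Other enzymes and carriers of retinoids were measured beside it. Of 30 aldehyde dehydrogenase and retinoic acid genes, 26 were tested and 0 passed between sites or between rounds. Of the 26, 10 were higher and 16 lower in ovary (median -0.041, against 0.0016 over all tested genes), and 12 were higher and 14 lower in round 2 (median -0.015, against -0.019). DHRS9, a retinol dehydrogenase, had 8.86 in round 2 and 7.11 in round 1 of the ovary lines, against 8.96 and 8.35 in the stomach lines. RBP4, the retinol carrier of plasma, had 8.52 in round 2 and 7.24 in round 1 of the ovary lines, against 8.64 and 8.71 in the stomach lines. Both were lowest on the round 1 ovary array, where ALDH1A1 was highest. Their differences between rounds were 1.18 ± 0.41 and 0.60 ± 0.49 (limma adjusted p = 0.316 and 0.564), and those between sites were -0.67 ± 0.61 and -0.79 ± 0.43 (limma adjusted p = 1 for both). The retinaldehyde reductase DHRS3 differed between sites by -0.27 ± 0.091 and the retinoic acid receptor RARG between rounds by 0.41 ± 0.11, neither of which passed. ALDH1A3, a paralog of ALDH1A1, differed between sites by -0.16 ± 0.099, and its second probe set by 0.034, so its probe sets disagree in direction.

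SOX9, ASCL2 and OLFM4 are the crypt-base genes of the set. SOX9, a transcription factor of the HMG-box family, had 7.97 in round 2 and 7.76 in round 1 of the ovary lines, against 7.83 and 7.95 in the stomach lines. Its whole range was 0.20, smaller than the median range of 0.26 over tested genes, and neither difference passed (-0.024 ± 0.12 between sites, 0.040 ± 0.10 between rounds). ASCL2, a basic helix-loop-helix factor induced by WNT, had 6.63 in round 2 and 6.61 in round 1 of the ovary lines, against 6.17 and 6.74 in the stomach lines. Its ovary arrays lay close together and between the stomach arrays, the round 2 stomach array being lowest. ASCL2 differed by 0.17 ± 0.21 between sites and by -0.28 ± 0.17 between rounds (limma adjusted p = 1 and 0.476).

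OLFM4, a secreted glycoprotein of the human crypt base, stayed below the signal minimum on every array and was not tested. Its level was 4.42 in round 2 and 4.54 in round 1 of the ovary lines, against 4.53 and 4.60 in the stomach lines. LGR5, the R-spondin receptor that defines these cells in mouse intestine, was also below the minimum, with 4.17 and 4.32 in ovary lines and 4.35 and 4.32 in stomach lines of rounds 2 and 1. Of 23 intestinal and gastric stem cell markers, 18 were tested and 0 passed in either comparison. There were 11 higher and 7 lower in ovary (median 0.032), and 9 higher and 9 lower in round 2 (median 0.0063). TERT, the catalytic subunit of telomerase, had 7.63 in round 2 and 8.42 in round 1 of the ovary lines, against 7.70 and 8.25 in the stomach lines. Its round 2 arrays lay below its round 1 arrays, with a difference of -0.67 ± 0.092 (limma adjusted p = 0.287). The cotransporter SLC12A2 had a difference of 0.36 ± 0.090 (limma adjusted p = 0.287), and the transcription factor BHLHA15 one of 0.22 ± 0.094 (limma adjusted p = 0.361). Between sites the members furthest apart were LGR6 (-0.28 ± 0.12), the ubiquitin ligase ZNRF3 (0.21 ± 0.10) and TNFRSF19 (-0.16 ± 0.13).

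LRIG1 encodes a transmembrane protein that lowers signalling by ERBB receptors and marks stem cells in mouse intestine. Its level was 8.25 in round 2 and 7.79 in round 1 of the ovary lines, against 7.98 and 8.31 in the stomach lines. The ovary minus stomach difference was 0.26 in round 2 and -0.52 in round 1, so the order of the sites turned between rounds. The contrast between these differences was 0.78 ± 0.22 (unadjusted p = 0.0191, limma adjusted p = 1), where 1.33% of tested genes had an unadjusted p under 0.05. Opposite signs in the rounds were found in 5 of the 8 tested members and in 45.1% of all tested genes. Both paralogs were lower in the ovary line in each round. LRIG2 had 8.77 in round 2 and 8.75 in round 1 of the ovary lines, against 9.02 and 9.05 in the stomach lines, with a difference of -0.27 ± 0.086, and LRIG3 differed by -0.15 ± 0.11 (limma adjusted p = 1 for both). Of the ERBB receptors on which LRIG1 acts, EGFR had 10.71 in round 2 and 10.29 in round 1 of the ovary lines, against 10.78 and 10.61 in the stomach lines. ERBB3 had 10.72 and 10.41 in ovary lines, against 10.81 and 10.80 in stomach lines. Between sites they differed by -0.20 ± 0.17 and -0.24 ± 0.13, and neither passed. Between rounds EGFR differed by 0.30 ± 0.13 (limma adjusted p = 0.359).

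MSI1 encodes Musashi-1, an RNA-binding protein that represses translation of the Notch inhibitor NUMB. Its level was 6.51 in round 2 and 6.64 in round 1 of the ovary lines, against 6.51 and 6.66 in the stomach lines. The sites differed by at most 0.023 in a round, and the round 2 arrays lay below the round 1 arrays, with differences of -0.13 in ovary and -0.15 in stomach lines. The mean difference, -0.14 ± 0.068, did not pass (limma adjusted p = 0.402). MSI2, its paralog, differed by 0.038 ± 0.080 between rounds. Of 22 genes of the Notch pathway and Musashi list, 20 were tested and 0 passed. Between sites 12 were higher and 8 lower in ovary (median 0.017), and between rounds 10 were higher and 10 lower (median 0.0031). The ligand DLL3 had 6.62 in round 2 and 7.32 in round 1 of the ovary lines, against 6.62 and 7.31 in the stomach lines. This was nearly the same step at both sites, -0.70 ± 0.068 on average (limma adjusted p = 0.287). The ligand DLL1 differed by -0.35 ± 0.12 and the target HEY1 by 0.45 ± 0.14 between rounds, without passing. Between sites HEY1 differed by -0.25 ± 0.23, the ligand JAG1 by 0.22 ± 0.095 and DLL1 by 0.20 ± 0.19 (limma adjusted p = 1 for all).

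ZFP42 encodes a zinc finger protein related to YY1 and is known from pluripotent cells. Its level was 7.11 in round 2 and 5.05 in round 1 of the ovary lines, against 5.92 in round 2 and 4.59 in round 1 of the stomach lines. Both round 2 arrays lay above the signal minimum and both round 1 arrays below it. Within each round the ovary line was the higher, by 1.19 in round 2 and 0.46 in round 1. The round 2 mean was 6.51 and the round 1 mean 4.82. The difference between rounds was 1.70 ± 0.43, with 2.06 in ovary and 1.33 in stomach lines, and it did not pass (limma adjusted p = 0.287, unadjusted p = 0.0122). The round 1 values lie under the signal minimum, so the size of this difference is uncertain too. Against the minimum itself the round 2 mean was 1.83-fold higher. The site difference was 0.83 ± 0.81 (limma adjusted p = 1). Without the round 2 ovary array the fitted site difference would be -0.20. That fit sets the round 1 ovary array against stomach arrays of both rounds, so site and round are mixed in it. Within round 1 alone the ovary line was the higher, by 0.46. YY1, the relative of ZFP42, differed by -0.034 ± 0.071 between rounds.

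The other genes of the pluripotency list differed little in the median. Of 30 listed genes, 25 had a row of their own, 18 were tested and 0 passed. POU5F1 and NANOG had no row of their own. In ovary 15 of the 18 were higher and 3 lower, where 50.6% of all tested genes were higher. The median was small, 0.038 against 0.0016 over all tested genes. In round 2, 8 were higher and 10 lower (median -0.017). SOX2 had 8.33 in round 2 and 7.97 in round 1 of the ovary lines, against 7.98 and 7.96 in the stomach lines. KLF4 had 10.02 in round 2 and 9.51 in round 1 of the ovary lines, against 9.47 and 9.37 in the stomach lines. Both were highest on the round 2 ovary array, as ZFP42 was. KLF4 differed by 0.31 ± 0.20 between rounds (limma adjusted p = 0.492). Between sites KLF4 differed by 0.35 ± 0.19, TFCP2L1 by 0.27 ± 0.13 and TBX3 by 0.26 ± 0.086, all transcription factors of the pluripotency network in mouse. UTF1 (-0.28 ± 0.072) and SALL4 (-0.24 ± 0.11) were lower in the mean of round 2 without passing.

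**Figure D2:**
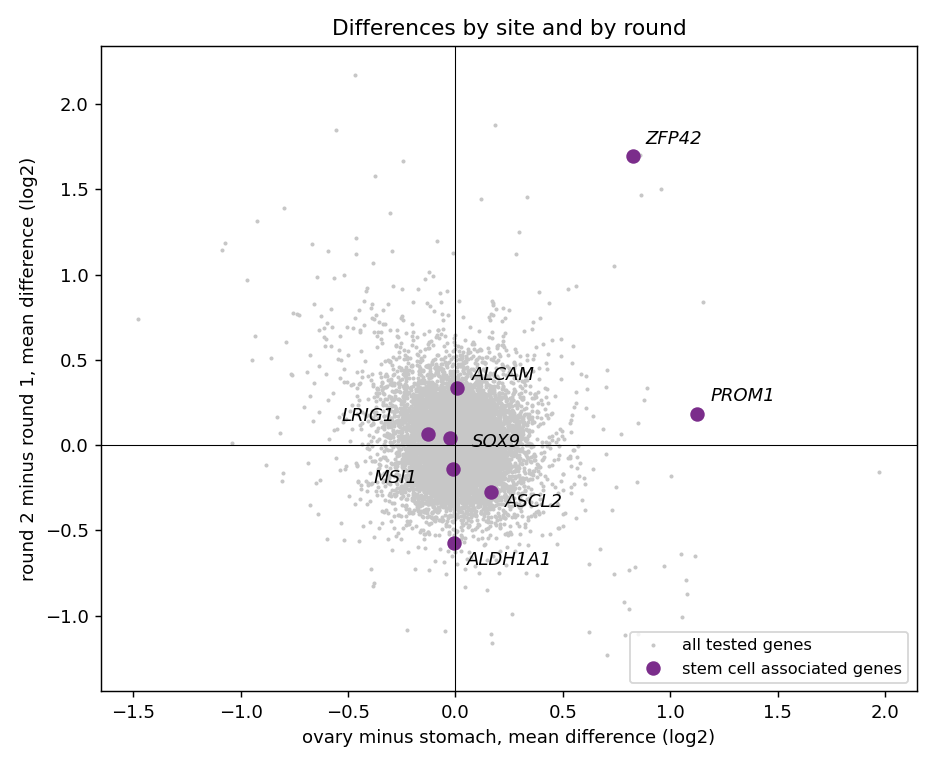
Mean difference between sites (x axis, ovary minus stomach, log2) against mean difference between rounds (y axis, round 2 minus round 1, log2). Grey points are the 14547 tested genes and purple points the 8 tested members. PROM1 lies far to the right (1.13, 0.19) and ZFP42 at the upper right (0.83, 1.70), and the other members lie within or at the edge of the cloud.

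The members did not move together. None of the 8 passed the test across all genes, between sites, between rounds or in the contrast of the site differences, and 0% of the 14547 tested genes passed in any of these. The smallest adjusted p of a member was 1 between sites and 0.287 between rounds. At an unadjusted p under 0.05 there was 1 member of 8 between sites (PROM1), or 12.5%, where 2.6% of all tested genes fell. Between rounds there were 2 (ALCAM and ZFP42), or 25%, where 15% fell. Nothing is read from these counts, because PROM1 and ZFP42 entered the test through the group in which they are high. With the replicate block, 916 genes instead of 378 had an unadjusted p under 0.05 between sites, and 0 were called. Between sites 4 members were higher and 4 lower in ovary, with a median of 0.00094. Between rounds 5 were higher and 3 lower in round 2, with a median of 0.053 against -0.019 over all tested genes.

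Few members had groups of arrays without overlap between sites. Both ovary arrays lay above both stomach arrays in 1 of 8 members, PROM1, or 12.5%, against 13.4% of all tested genes, and below them in 0 of 8, against 11.2%. Both round 2 arrays lay above both round 1 arrays in 2 members (ALCAM and ZFP42), or 25%, against 22.2%, and below them in 2 (ALDH1A1 and MSI1), or 25%, against 26.8%. These shares are near the background. PROM1 and ZFP42 passed the signal minimum through the group in which they are high, so nothing is read from their part in these counts.

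The arrays shared the variation differently for each member. Of the sum of squares of PROM1 over the 4 arrays, 92.9% lay between sites. Pooled over all tested genes 26.6% did, and the median share of a gene was 20.3%. MSI1 had 98.7% between rounds, ALCAM 88.7% and ZFP42 77.9%, against 51.5% pooled and a median of 44.8%. SOX9 had 92.4% and LRIG1 88.0% in the interaction of site and round, against 21.9% pooled and a median of 17.3%. PROM1 and ZFP42 passed the signal minimum through the group in which they are high, so nothing is read from their shares. ALDH1A1 was divided between the round (55.0%) and the interaction (45.0%). In SOX9 and MSI1 these shares describe ranges of 0.20 and 0.15, below the median range of 0.26.

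**Figure D3:**
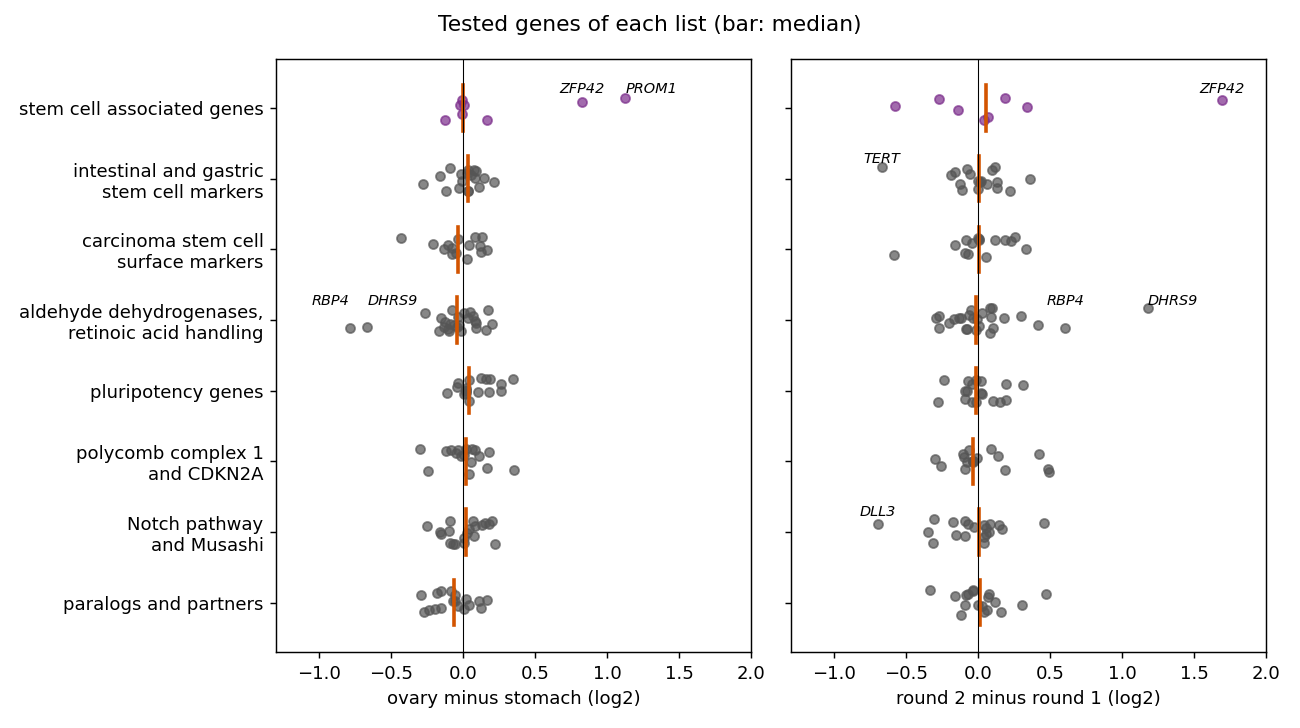
Mean differences of the tested genes of each list, ovary minus stomach on the left and round 2 minus round 1 on the right (log2). Each point is a gene, the bar is the median of a list, and genes beyond 0.6 are named. On the left these are PROM1 (1.13), ZFP42 (0.83), RBP4 (-0.79) and DHRS9 (-0.67), and on the right ZFP42 (1.70), DHRS9 (1.18), RBP4 (0.60), DLL3 (-0.70) and TERT (-0.67), while the medians of all 8 lists lie between -0.066 and 0.053.

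Surface markers and chromatin partners were read beside the members. Of 20 carcinoma stem cell surface markers, 15 were tested and 0 passed, with 7 higher and 8 lower in ovary (median -0.038) and 8 higher and 7 lower in round 2 (median 0.0045). CD44, the hyaluronan receptor used to sort gastric carcinoma cells, had 13.32 in round 2 and 13.41 in round 1 of the ovary lines, against 13.28 and 13.37 in the stomach lines. NT5E, the ectonucleotidase CD73, had 6.88 in round 2 and 6.97 in round 1 of the ovary lines, against 7.41 and 7.31 in the stomach lines. NT5E thus ran opposite to PROM1, with its ovary arrays below its stomach arrays and a difference of -0.43 ± 0.097 (limma adjusted p = 1). The efflux pump ABCG2 had 8.03 in round 2 and 8.52 in round 1 of the ovary lines, against 7.80 and 8.48 in the stomach lines. Its difference between rounds was -0.59 ± 0.10, and that of CD24 was 0.33 ± 0.090 (limma adjusted p = 0.287 for both). The tetraspanin CD9 differed between rounds by 0.26 ± 0.13 (limma adjusted p = 0.424). Between sites the adhesion molecules EPCAM and MCAM differed by -0.21 ± 0.090 and 0.17 ± 0.14 (limma adjusted p = 1 for both).

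For the complex in which BMI1 acts, 17 of 20 listed genes were tested and 0 passed. Between sites 10 were higher and 7 lower in ovary (median 0.017), and between rounds 6 were higher and 11 lower (median -0.035). PHC1, a polyhomeotic subunit, differed between sites by 0.35 ± 0.096 (limma adjusted p = 1), with 0.35 in its second probe set too. The probe sets had nearly the same value on each array, such as 6.06 and 6.05 in the round 1 ovary line. PHC1 lay near the signal minimum, and under it in the round 2 stomach line (5.62). PCGF5 and PCGF3, paralogs of BMI1, differed between rounds by 0.49 ± 0.16 and 0.42 ± 0.13, and RYBP by 0.49 ± 0.12. CDKN2A, a locus repressed by BMI1, had 5.71 and 5.87 in ovary lines against 6.02 and 6.06 in stomach lines of rounds 2 and 1, near the signal minimum. Between sites CDKN2A differed by -0.25 ± 0.10 and PCGF5 by -0.30 ± 0.24 (limma adjusted p = 1 for both). Among the paralogs and partners of the members, 18 of 23 were tested and 0 passed, with 6 higher and 12 lower in ovary (median -0.066) and 9 higher and 9 lower in round 2 (median 0.014). SOX8, a relative of SOX9, differed between rounds by -0.34 ± 0.090.

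The genes nearest to PROM1 and ZFP42 in pattern were found by the root mean square distance between values minus the gene mean, over the 4 arrays and 14547 tested genes. Nearest to PROM1 was PIWIL1, a germline Argonaute protein, at a distance of 0.18. PIWIL1 had 8.38 in round 2 and 8.08 in round 1 of the ovary lines, against 7.52 and 7.15 in the stomach lines. Then came ZNF711 (0.25), ADGRL2 (0.26), TBC1D9 (0.27) and PIGW (0.28), each with both ovary arrays above both stomach arrays. Nearest to ZFP42 was DKK1, a secreted WNT antagonist, at 0.064; the next gene was at 0.29. DKK1 had 8.41 in round 2 and 6.22 in round 1 of the ovary lines, against 7.06 and 5.85 in the stomach lines. Its steps between rounds were 2.19 in ovary and 1.21 in stomach lines, beside 2.06 and 1.33 for ZFP42. MGAM (0.29), GLI3 (0.35), SERTAD4 (0.35) and TP53INP1 (0.38) followed. Except on the round 2 ovary array (7.27), MGAM lay under the signal minimum, and it entered the test through that array. With 4 arrays the nearest genes show likenesses of shape and have no test.

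**Figure D4:**
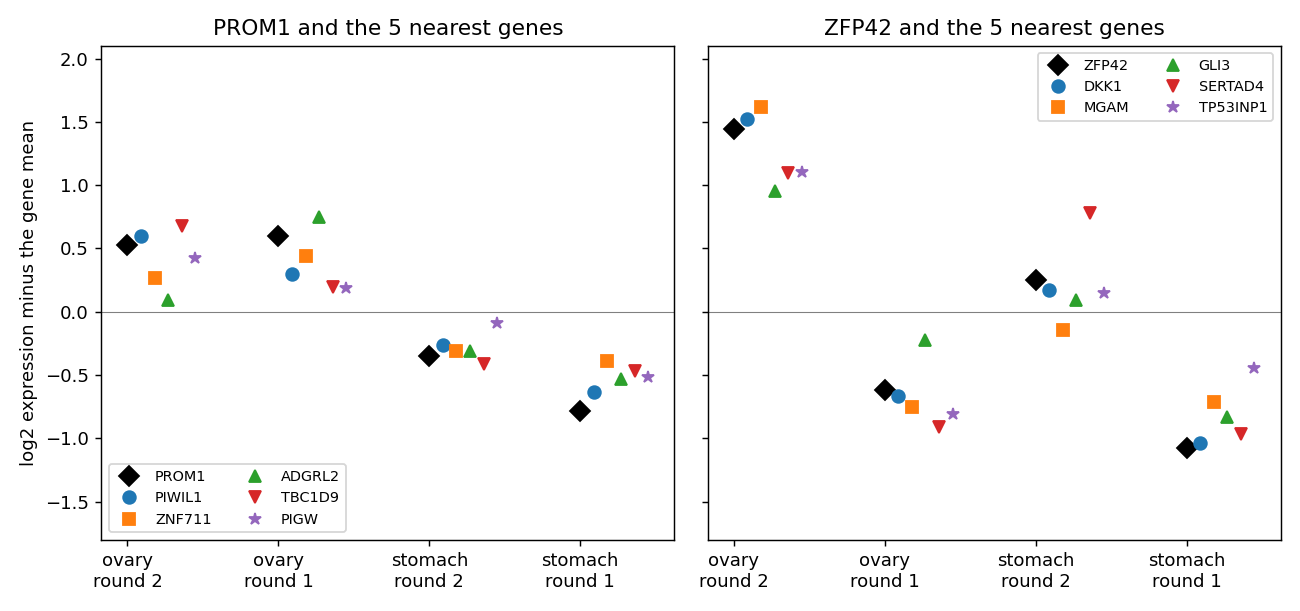
Log2 expression minus the gene mean on the 4 arrays, for PROM1 (left) and ZFP42 (right), both as black diamonds, and the 5 tested genes nearest to each (coloured symbols, set off sideways so that they can be told apart). The ovary values of all genes on the left lie above their stomach values. On the right DKK1 lies closest to ZFP42 on all arrays, both highest in the round 2 ovary line.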

How the data were processed

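TRIzol-extracted total RNA of cell pellets was biotinylated (WT Terminal Labeling Kit) and read on Affymetrix arrays, per the labels' protocols. The authors deposited log2 expression per probe set, in 1 table. The submitters' processing notes name Affymetrix Expression Console; for background, scaling and summarization, the method is not given in the sources used. That the scale is log2 follows from the values, which run from 2.25 to 14.2. A shift of all transcripts at once could not be seen if the arrays had been scaled together.

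Of 33297 rows, 19460 carry 1 gene symbol in GEO's platform annotation, 1754 several (not used) and 12083 none here. Symbols were updated to RefSeq (GRCh38.p14) for 19429 rows; 31 were not found. The probe set with the highest mean stood for a gene, giving 18417 genes. Those with a mean above the 30th percentile over rows (5.64), 14547 in number, entered limma 3.58.1 (R 4.3.3, functions lmFit and eBayes, two-sided) on the 4 arrays together, with p-values adjusted after Benjamini and Hochberg and a threshold of 0.05. The fits were ovary minus stomach, round 2 minus round 1, and the round 2 site difference minus the round 1 site difference. Errors of differences are limma's standard errors. The fits were tested on simulated data with known changes.

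The replicate number is the implantation round, which both sites share. Deviations from the site means correlated at 0.411 for same-round arrays (2 pairs), and a replicate block was therefore also fitted, with the round as the block between sites and the site as the block between rounds. The members and gene lists were chosen with earlier results of these data known. Named are all members, 12 listed relatives and markers, the 3 genes furthest apart per list in each comparison, and the 5 genes nearest to PROM1 and ZFP42. Alternatives were other signal minimums, quantile normalization, median centring, other probe sets of a gene, trended and robust priors, a threshold of 0.10, the replicate block, leaving out each array and, chosen after the data were examined, exchanged labels of the round 2 arrays. Upstream sequences come from RefSeq.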

Additional observations from a re-analysis of the deposited data

How the results depend on the processing

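The number of called genes was 0 in each of the 3 comparisons and stayed 0 under all 34 alternatives tried for these counts, the replicate block (0 between sites, 0 between rounds) and the threshold of 0.10 included. At an unadjusted p under 0.05, limma gave 378 genes between sites (916 with the replicate block), 2178 between rounds and 194 in the contrast of the site differences. No member was called under an alternative, the smallest adjusted p being 0.182 for ZFP42 between rounds with the site as the block. Members kept their direction in 185 of 208 values. Many of these values could not turn. Other signal minimums, other priors and the replicate block leave a fitted difference as it is, and each member has 1 probe set. All reversals came under quantile normalization, with an array left out or with exchanged labels. PROM1 between sites ran from 0.91 to 1.34 and ZFP42 between rounds from 1.10 to 2.29 when each array was left out. Under quantile normalization the ALCAM site difference was -7.6e-05. When each array was left out, site differences ran from -0.56 to 0.54 for ALDH1A1, -0.22 to 0.24 for ALCAM, -0.125 to 0.078 for SOX9, -0.12 to 0.45 for ASCL2, -0.36 to 0.10 for LRIG1, -0.087 to 0.063 for MSI1 and -0.20 to 1.86 for ZFP42. Round differences then ran from -0.50 to 0.87 for PROM1, -0.053 to 0.13 for SOX9, -0.19 to 0.33 for LRIG1, -0.84 to -0.31 for ALDH1A1 and -0.51 to -0.045 for ASCL2. With the round 2 labels exchanged, site differences were 0.52 for ALDH1A1, -0.12 for ALCAM, -0.30 for ASCL2 and -0.37 for ZFP42, with the sign turned, and 0.25 for PROM1, -0.16 for SOX9, -0.39 for LRIG1 and -0.011 for MSI1, with the sign kept. A fit without 1 array sets a lone array against 2 arrays, so site and round are mixed in its difference. With exchanged labels the mean site difference takes the round 2 site difference with its sign turned. Apart from this arithmetic, the causes of these turns were not tested. Fits with 3 arrays have 1 residual degree of freedom and assume that a lone array varies like the others. With a signal minimum at the 50th percentile PROM1, ZFP42, ASCL2 and MSI1 have no value.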
